A study of Homo sapiens with 15 samples.

Results

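The genes described here are 41 genes of the lysosome and of autophagy, chosen by symbol and matched to the 62754 Ensembl gene IDs of a count table of mRNA libraries. They comprise 3 transcription factors, 4 lysosomal membrane proteins, 7 proteases, 6 glycosidases, 3 enzymes of sphingolipid breakdown or their activator, 6 genes of the proton pump, 5 genes of the LC3 family and cargo receptors, and 7 genes of the core autophagy machinery. The libraries came from NCI-H69 (H69), an established line of small cell lung cancer that grows as floating clusters and expresses neuroendocrine genes. There were 3 libraries of cells given FB23-2, 3 of cells given CS2 and 3 of cells given DMSO, the solvent control. Both compounds were named in the study as inhibitors of FTO, an enzyme that removes N6-methyladenosine from RNA, and CS2 is otherwise known as brequinar, an inhibitor of the pyrimidine synthesis enzyme DHODH. The study described the libraries as biological replicates of a single line, and the sources used here give no doses and no treatment times. The sizes of the 2 responses therefore compare these samples and not equal exposures. A further 6 libraries, of the line H82, were not analysed here.

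Lysosomes are acidic compartments in which hydrolases break down protein, glycans, lipids and nucleic acids. A proton pump, the vacuolar ATPase (V-ATPase), keeps the lumen acid, and membrane proteins such as LAMP1 and LAMP2 line it. In autophagy a membrane studded with lipid-bound LC3 proteins encloses cytoplasm, with or without receptor-bound cargo, and fuses with a lysosome. Many genes of both systems carry an E-box with the letters CACGTG near their start sites. TFEB, TFE3 and MITF, which TORC1 holds in the cytoplasm by phosphorylation, bind this motif, most strongly in the extended form known as CLEAR (coordinated lysosomal expression and regulation).

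The following promoter stretches carry such an E-box and belong to members that the results below turn on. Each is the 130 bases before the RefSeq start site on GRCh38.p14, written along the gene's strand, with CACGTG in capitals. MCOLN1 encodes the lysosomal calcium channel TRPML1 (chr19:7522494-7522623, plus strand), GAA acid alpha-glucosidase (chr17:80101451-80101580, plus strand), CTSF cathepsin F (chr11:66568607-66568736, minus strand) and NEU1 lysosomal sialidase (chr6:31862822-31862951, minus strand).
MCOLN1: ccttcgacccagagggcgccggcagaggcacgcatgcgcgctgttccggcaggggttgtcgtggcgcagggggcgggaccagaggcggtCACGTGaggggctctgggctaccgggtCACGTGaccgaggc
GAA: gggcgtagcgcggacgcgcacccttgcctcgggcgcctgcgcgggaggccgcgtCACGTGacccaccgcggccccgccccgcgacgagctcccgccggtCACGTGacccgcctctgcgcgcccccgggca
CTSF: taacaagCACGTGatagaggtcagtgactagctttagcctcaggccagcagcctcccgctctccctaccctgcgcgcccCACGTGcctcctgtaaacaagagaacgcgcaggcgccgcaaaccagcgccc
NEU1: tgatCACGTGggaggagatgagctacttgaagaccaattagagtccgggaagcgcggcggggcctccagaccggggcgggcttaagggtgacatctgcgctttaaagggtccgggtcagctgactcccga

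The stretches of MCOLN1, GAA and CTSF held 2 copies each and that of NEU1 held 1. A match of letters is a description and not a measured binding site. The RefSeq table held a promoter, from 250 bases before to 50 bases after the start, for 31 of the 41 members. On either strand, CACGTG occurred in 9 of the 31, counted by gene, and in 7.26% of 35116 single promoters of all genes. A gene may have several promoters, so these shares are not alike. Counted by gene, CACGTG occurred in 1485 of 12579 genes that had a promoter and passed the filter on low counts described below. The 9 members with CACGTG were LAMP1 with 6 copies, CTSA, CTSF, GAA, MCOLN1 and CLN3 with 2 each, and CTSD, NEU1 and ATP6V0D1 with 1 each. The 8-base form TCACGTGA, which contains the E-box, occurred in LAMP1, CTSA, GAA, MCOLN1, CLN3 and ATP6V0D1. It occurred in 0.98% of all single promoters and in 249 of the 12579 genes. The 10-base CLEAR form, the same 8 letters with G before and C after, occurred in GAA and MCOLN1. Its share was 0.353% of all single promoters, and it occurred in 98 of the 12579 genes. Of further motifs searched, a C/EBP-ATF element, TGATGNAA, occurred in 0 of the 31 members and in 3.62% of all promoters. An antioxidant response element, TGACNNNGC, occurred in 9 of the 31 members and in 13.3% of all promoters. Counted by gene, the C/EBP-ATF element occurred in 372 and the antioxidant response element in 2387 of the 12579 genes.

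Library totals ran from 32352835 to 43957839 counts for FB23-2, from 29916267 to 33663742 for CS2 and from 31404658 to 45022633 for DMSO. Levels are given as CPM, counts scaled to a common library size after TMM normalization, and 3 counts, taken as the limit that a count of 0 allows, were worth 0.0666 to 0.101 CPM. Replicate 2 of FB23-2 stood apart from the other 2 libraries of its group. Mitochondrial genes took 6.83%, 11% and 6.91% of counts with FB23-2, 7.3% to 9.05% with CS2 and 5.18% to 5.69% with DMSO. Mitochondrial ribosomal RNA alone took 1.92% to 3.41% with FB23-2, 3.58% to 4.61% with CS2 and 0.907% to 1.06% with DMSO. All 7 neuroendocrine markers checked were at or above 1 CPM in every library, and their summed level was 2174 to 2381 CPM with FB23-2, 2656 to 2700 with CS2 and 2896 to 3136 with DMSO. Single markers moved in opposite directions under this sum. DDC ran from 46.6 to 65.5 CPM with FB23-2 against 313 to 343 with DMSO, but NCAM1 from 622 to 760 against 518 to 565. CHGB ran from 467 to 608 CPM with CS2 against 211 to 213 with DMSO, but NCAM1 from 299 to 307. The 9 macrophage markers summed to 2.89 to 4.18, 3.68 to 4.02 and 3.91 to 4.37 CPM with FB23-2, CS2 and DMSO, and C1QA, C1QB and CD163 had 0 counts in all 9 libraries. The 7 fibroblast markers summed to 10.6 to 15.4, 33.2 to 39.9 and 53.1 to 54.7 CPM in the same order, nearly all of it COL1A2, with COL3A1 and DCN at 0 counts. The part of these shares and markers in the results below was not tested. In RNA from a whole culture, fewer cells with a transcript and less of it per cell cannot be told apart.

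Of the 41 members, 39 passed the filter on low counts, and MITF and GABARAPL1 did not. MITF, the melanocyte and mast cell factor of the TFEB family, had 2, 8 and 8 counts with FB23-2, 0, 2 and 0 with CS2 and 2, 0 and 5 with DMSO. GABARAPL1, an LC3-like protein, had 4, 2 and 6 counts with FB23-2, 2, 0 and 0 with CS2 and 2, 0 and 0 with DMSO. CLN3, a membrane protein mutated in juvenile Batten disease, passed with only 7 to 20 counts per library. Per kilobase of merged exon, the most abundant members in DMSO cells were PSAP at 93.0 CPM per kb, LAMP1 at 57.3, ATP6V0E1 at 46.7 and ATP6AP1 at 33.6. ATP6V1B2 at 27.1 and GUSB at 27.0 came next and overlapped between libraries. At the low end stood WIPI1 at 1.39, CTSZ at 0.715, HEXA at 0.503 and CTSL at 0.364 CPM per kb. This order depends on merged exon length, which pools all annotated transcripts and is 12611 bases for HEXA. In plain CPM, HEXA averaged 6.35 in DMSO cells, above WIPI1 at 4.74, and CTSL averaged 0.862. The cathepsin and autophagy genes that differed most between groups, CTSL and WIPI1, were thus among the least abundant in DMSO cells.

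**Figure D1:**
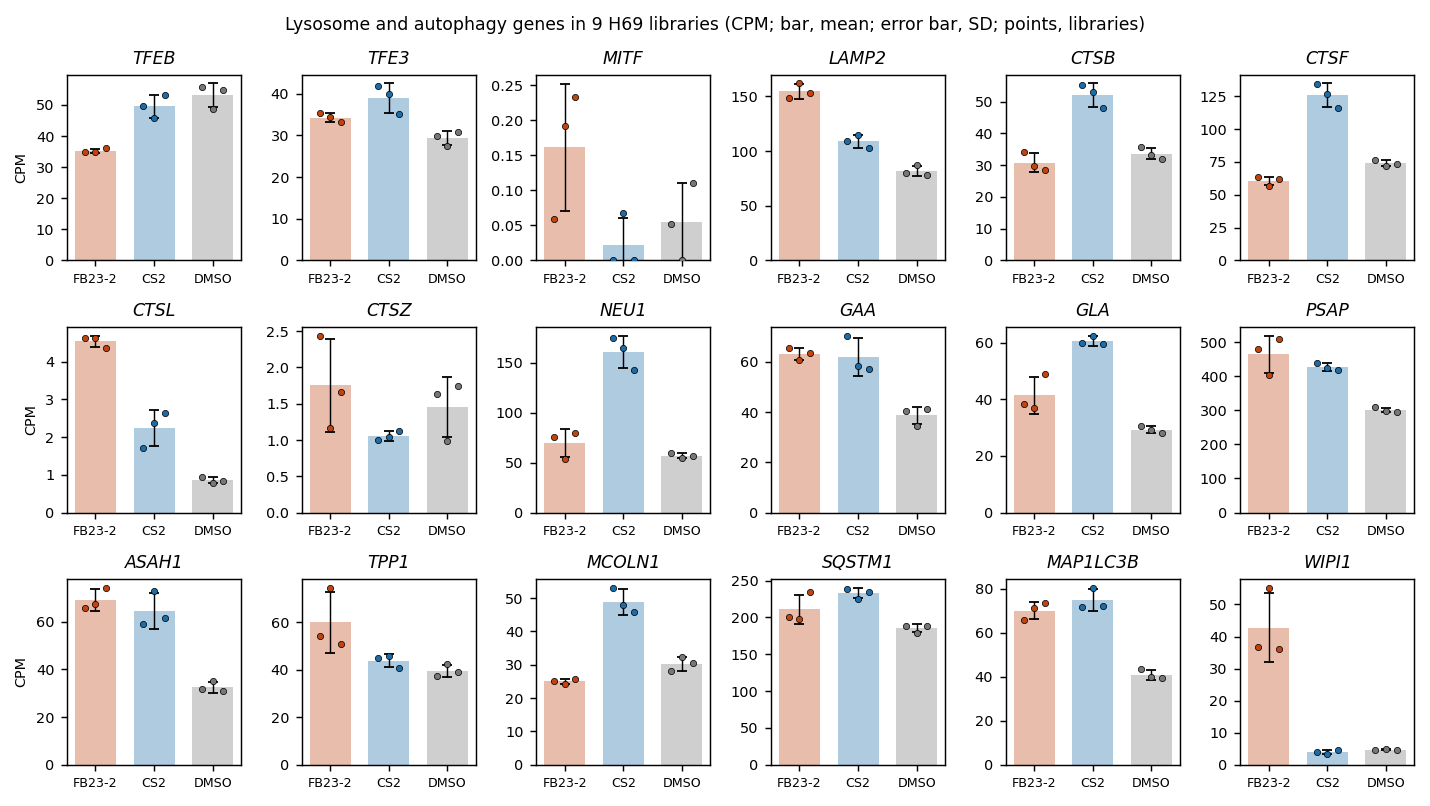
Level of 18 members (CPM, axes from 0), a panel for each gene with FB23-2, CS2 and DMSO from left to right; points are libraries, bars means and error bars SDs (n = 3 each). WIPI1 lies at 36.2 to 55.2 CPM with FB23-2 and below 5 CPM in all other libraries, and NEU1 is highest with CS2.

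With CS2, 22 of the 39 tested members were higher than with DMSO, 2 were lower and 15 did not pass an adjusted p of 0.05 (edgeR quasi-likelihood test, Benjamini-Hochberg over 19781 genes). Across all tested genes 24.3% were called higher and 25.3% lower, 49.7% in all, with a median log2 fold change of 0.00, and the median of the 39 members was 0.29. With FB23-2, 17 members were higher than with DMSO, 7 were lower and 15 did not pass, against 25.4% higher and 26.7% lower, 52% in all, of all genes, and the members' median was 0.11. FB23-2 set directly against CS2 gave 8 members higher, 16 lower and 15 that did not pass, against 29.7% higher and 30% lower, 59.6% in all, with a member median of -0.14. The first 2 comparisons share the DMSO libraries, so their member values are given side by side. Summed over all 41 members, the level was 3043, 2858 and 3164 CPM with FB23-2, 3441, 3370 and 3272 CPM with CS2 and 2641, 2556 and 2589 CPM with DMSO. The sum was thus highest in the 3 CS2 libraries and lowest in the 3 DMSO libraries, with no overlap of the 3 groups. Without replicate 2 of FB23-2, 18 members were higher and 6 lower with FB23-2 than with DMSO, and 9 were higher and 13 lower than with CS2.

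**Figure D2:**
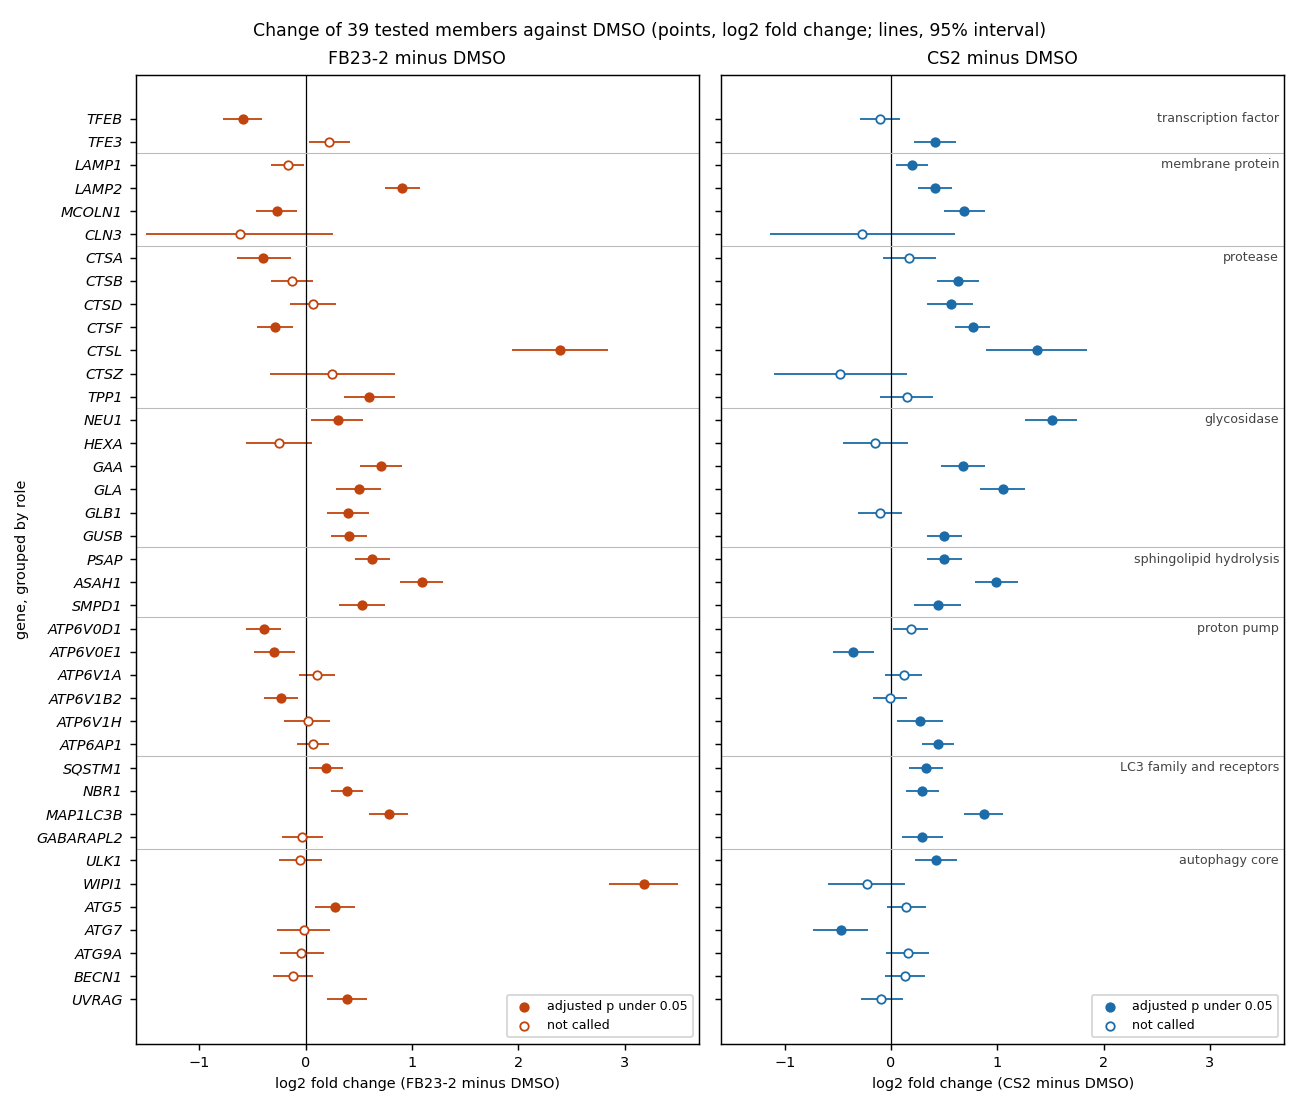
Log2 fold change of the 39 tested members against DMSO (points) with 95% intervals (lines), grouped by role, FB23-2 in the left panel and CS2 in the right; filled points passed an adjusted p of 0.05. CS2 values lie mostly to the right of 0, up to 1.51 for NEU1, whereas FB23-2 values spread from -0.62 for CLN3, which was not called, to 3.18 for WIPI1.

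TFEB, the main transcription factor of lysosomal genes, fell with FB23-2 and did not pass the test with CS2. Its gene lies at chr6:41683978-41736259 on the minus strand of GRCh38. TFEB stood at 34.8, 34.8 and 36.1 CPM in FB23-2 libraries, at 49.7, 45.8 and 53.2 CPM in CS2 libraries and at 55.9, 48.8 and 54.7 CPM in DMSO libraries. All 3 FB23-2 libraries lay below the other 6, while CS2 and DMSO libraries overlapped. The edgeR log2 fold change was -0.59 ± 0.09 (SE, n = 3 each; edgeR adjusted p = 1.41e-05) for FB23-2 against DMSO and -0.10 ± 0.09 (edgeR adjusted p = 0.353) for CS2. The direct difference, FB23-2 minus CS2, was -0.49 ± 0.09 (edgeR adjusted p = 8.7e-05).

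TFE3, a close relative that binds the same motif, stood at 35.3, 34.4 and 33.1 CPM with FB23-2, at 41.9, 39.9 and 35.1 CPM with CS2 and at 29.8, 27.4 and 30.8 CPM with DMSO. Both compound groups lay above DMSO in every library. The rise passed the test with CS2 (log2 fold change 0.41 ± 0.09, SE, edgeR adjusted p = 0.00113). With FB23-2 the value was 0.22 ± 0.09 and missed it (edgeR adjusted p = 0.0501), and between the compounds it was -0.19 with a 95% interval from -0.38 to 0.01. The FB23-2 value passed in 8 of 15 alternative settings, among them without FB23-2 replicate 3 (0.27, edgeR adjusted p = 0.0456) and with a correction for gene span and GC content (0.40, edgeR adjusted p = 0.000516). That correction put the CS2 value at 0.21 (edgeR adjusted p = 0.0418), and FB23-2 minus CS2 at 0.19 (edgeR adjusted p = 0.0621), so the sign of the difference between the compounds, which passed with neither, depends on it.

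Among the membrane proteins, LAMP2 rose with both compounds and more with FB23-2, and MCOLN1 rose with CS2 but not with FB23-2. LAMP2, which takes part in chaperone-mediated autophagy and in fusion of autophagosomes with lysosomes, stood at 149, 162 and 153 CPM with FB23-2, at 109, 115 and 103 CPM with CS2 and at 80.4, 87.2 and 78.2 CPM with DMSO. The 3 groups did not overlap. Its log2 fold change was 0.91 ± 0.08 with FB23-2 (edgeR adjusted p = 8.71e-09) and 0.41 ± 0.08 with CS2 (edgeR adjusted p = 0.000185), and FB23-2 exceeded CS2 by 0.50 ± 0.08. LAMP1, its abundant partner in the lysosomal membrane, ran from 263 to 309 CPM with FB23-2, from 369 to 389 CPM with CS2 and from 320 to 337 CPM with DMSO. The CS2 value of 0.20 passed (edgeR adjusted p = 0.0285) and the FB23-2 value of -0.17 did not (edgeR adjusted p = 0.0533), while FB23-2 lay below CS2 by 0.37 on the log2 scale (edgeR adjusted p = 0.000202). The CS2 call on LAMP1 was lost in 7 of the 15 alternative settings, including without DMSO replicate 2 or 3 or CS2 replicate 1 or 3.

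MCOLN1 stood at 25, 24.3 and 25.8 CPM with FB23-2, at 53.1, 47.8 and 45.7 CPM with CS2 and at 28.1, 32.2 and 30.6 CPM with DMSO. All CS2 libraries lay above DMSO and all FB23-2 libraries below it. The log2 fold change was 0.69 ± 0.09 with CS2 (edgeR adjusted p = 4.06e-06) and -0.27 ± 0.09 with FB23-2 (edgeR adjusted p = 0.0184), with a direct difference of -0.96 ± 0.09 (edgeR adjusted p = 3.25e-08). The fall with FB23-2 was not called without DMSO replicate 2 (-0.23, edgeR adjusted p = 0.0895) or replicate 3 (-0.27, edgeR adjusted p = 0.0605). The correction for gene span and GC content also ended that call (-0.07, edgeR adjusted p = 0.524), while the rise with CS2 and the difference between the compounds passed in every setting run. CLN3 passed no test, with values of -0.62 for FB23-2 and -0.27 for CS2 on its few counts, and other annotated genes overlap 30.9% of its exons by length.

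Of the 7 proteases, 4 rose with CS2 (CTSB, CTSD, CTSF and CTSL) and none fell, against 2 that rose (CTSL and TPP1) and 2 that fell (CTSA and CTSF) with FB23-2. The FB23-2 counts were 28.6% each way, near the 25.4% higher and 26.7% lower of all genes. With CS2 57.1% rose, against 24.3% of all genes. CTSF, a papain-like cysteine protease, stood at 63.1, 56.8 and 61.6 CPM with FB23-2, at 134, 127 and 116 CPM with CS2 and at 76.3, 72.1 and 73.3 CPM with DMSO. Its CS2 libraries were the highest and its FB23-2 libraries the lowest, with no overlap. The edgeR log2 fold change was 0.77 ± 0.08 with CS2 (edgeR adjusted p = 1.69e-07) and -0.29 ± 0.08 with FB23-2 (edgeR adjusted p = 0.00501), and FB23-2 minus CS2 was -1.06 ± 0.08 (edgeR adjusted p = 1.26e-09). CTSF and MCOLN1 were the members called higher with one compound and lower with the other. With the span and GC correction the FB23-2 value of CTSF was -0.09 (edgeR adjusted p = 0.248).

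CTSB, a cysteine protease with both endopeptidase and carboxypeptidase activity, stood at 34.3, 29.7 and 28.5 CPM with FB23-2, at 55.2, 53 and 47.9 CPM with CS2 and at 35.7, 33.2 and 32.1 CPM with DMSO. The 3 CS2 libraries lay above all others, and FB23-2 and DMSO overlapped. The rise with CS2 was 0.63 ± 0.10 on the log2 scale (edgeR adjusted p = 1.85e-05), and FB23-2 minus CS2 was -0.76 ± 0.10 (edgeR adjusted p = 1.3e-06). CTSD, the main aspartic protease, ran from 24 to 31.5 CPM with FB23-2, from 38.1 to 41.5 CPM with CS2 and from 25.9 to 29 CPM with DMSO. Its log2 fold change was 0.07 with FB23-2 (edgeR adjusted p = 0.602) and 0.56 with CS2 (edgeR adjusted p = 0.000176). With the span and GC correction CTSD was called higher with both, at 0.30 with FB23-2 (edgeR adjusted p = 0.00507) and 0.32 (edgeR adjusted p = 0.0031) with CS2, and FB23-2 minus CS2 was -0.02 (edgeR adjusted p = 0.829). Over CTSD, 52.7% of exon bases overlap another annotated gene, so its counts are less certain. CTSA, which protects NEU1 and the beta-galactosidase in a complex, ran from 10.7 to 12.9 CPM with FB23-2, from 15.5 to 20.2 CPM with CS2 and from 14.9 to 16.1 CPM with DMSO. Its fall with FB23-2 (-0.40, edgeR adjusted p = 0.0096) was lost without FB23-2 replicate 3 (-0.32, edgeR adjusted p = 0.0545) and with the span and GC correction (-0.20, edgeR adjusted p = 0.124), and 28.5% of its exon bases overlap NEURL2 and other genes.

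CTSL, the lysosomal cysteine endopeptidase cathepsin L, was scarce and rose with both compounds. CTSL stood at 4.62, 4.63 and 4.37 CPM with FB23-2, at 1.71, 2.38 and 2.63 CPM with CS2 and at 0.947, 0.795 and 0.844 CPM with DMSO. The groups were ordered FB23-2, CS2, DMSO without overlap. The log2 fold change was 2.39 ± 0.22, or 5.24-fold, with FB23-2 (edgeR adjusted p = 2.31e-08) and 1.37 ± 0.23 with CS2 (edgeR adjusted p = 5.1e-05), and FB23-2 exceeded CS2 by 1.02 ± 0.20 (edgeR adjusted p = 0.000185). CTSZ, a carboxypeptidase, had 2.44, 1.17 and 1.66 CPM with FB23-2, 1, 1.04 and 1.13 CPM with CS2 and 1.63, 0.986 and 1.75 CPM with DMSO. It passed only between the compounds (0.72 ± 0.30, edgeR adjusted p = 0.0428), and that call was lost in 8 of 15 alternative settings, including without any single CS2 library or without FB23-2 replicate 1 (0.43, edgeR adjusted p = 0.252) or 3.

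TPP1, a serine protease that removes tripeptides, stood at 54.4, 74.6 and 51 CPM with FB23-2, at 45, 46 and 40.7 CPM with CS2 and at 37.6, 42.4 and 39 CPM with DMSO. FB23-2 replicate 2 was the highest library, and the other 2 FB23-2 libraries also lay above all CS2 and DMSO libraries. Relative to DMSO, the log2 fold change was 0.60 ± 0.12 with FB23-2 (edgeR adjusted p = 0.000237), or 0.41 (edgeR adjusted p = 0.000203) without that replicate, and 0.15 with CS2 (edgeR adjusted p = 0.306). The direct difference was 0.45 ± 0.12 (edgeR adjusted p = 0.00236).

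Of the 6 glycosidases, 4 rose with CS2 (NEU1, GAA, GLA and GUSB), 5 rose with FB23-2 (the same 4 and GLB1), and none was called lower with either compound. The shares that rose were 66.7% with CS2 and 83.3% with FB23-2, against 24.3% and 25.4% of all genes. NEU1, which removes sialic acid from glycoproteins, had the largest rise of any member with CS2. It stood at 75.6, 53.8 and 79.7 CPM with FB23-2, at 175, 165 and 143 CPM with CS2 and at 59.3, 54.3 and 56.5 CPM with DMSO. The CS2 libraries lay far above all others, and FB23-2 replicate 2 lay below all DMSO libraries although the other 2 lay above them. The log2 fold change was 1.51 ± 0.12 with CS2 (edgeR adjusted p = 5.49e-09) and 0.30 ± 0.12 with FB23-2 (edgeR adjusted p = 0.0385), with a direct difference of -1.21 ± 0.12 (edgeR adjusted p = 4.87e-08). The FB23-2 value was 0.46 (edgeR adjusted p = 2.16e-05) without its replicate 2, and was not called in 6 of 15 alternative settings, among them without any single DMSO library and without FB23-2 replicate 1 or 3 (0.20 to 0.33, edgeR adjusted p from 0.055 to 0.165).

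GLA, alpha-galactosidase A, stood at 38.3, 36.9 and 48.9 CPM with FB23-2, at 59.8, 62.5 and 59.5 CPM with CS2 and at 30.6, 29 and 28.2 CPM with DMSO. The 3 groups did not overlap, with CS2 the highest. The edgeR log2 fold change was 0.50 ± 0.10 with FB23-2 (edgeR adjusted p = 0.000381) and 1.05 ± 0.10 with CS2 (edgeR adjusted p = 5.9e-08), and the direct difference was -0.55 ± 0.10 (edgeR adjusted p = 9.05e-05). GAA, which digests lysosomal glycogen, stood at 65.4, 60.8 and 63.6 CPM with FB23-2, at 70.5, 58.2 and 57 CPM with CS2 and at 40.3, 34.6 and 41.1 CPM with DMSO. Both compound groups lay above DMSO and overlapped each other. The values of GAA were 0.71 ± 0.10 with FB23-2 (edgeR adjusted p = 4.83e-06) and 0.68 ± 0.10 with CS2 (edgeR adjusted p = 9.2e-06), and the difference of 0.03 had a 95% interval from -0.17 to 0.23. With the span and GC correction, however, GAA was higher with FB23-2 than with CS2 (0.50, edgeR adjusted p = 1.03e-05).

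GUSB, beta-glucuronidase, ran from 135 to 149 CPM with FB23-2, from 142 to 169 CPM with CS2 and from 104 to 111 CPM with DMSO, with called values of 0.41 for FB23-2 and 0.50 for CS2 on the log2 scale. GLB1, the lysosomal beta-galactosidase, ran from 30.3 to 35.4 CPM with FB23-2, from 21.5 to 24.7 CPM with CS2 and from 24.4 to 25.8 CPM with DMSO. Its rise with FB23-2 was 0.40 (edgeR adjusted p = 0.00169), and FB23-2 exceeded CS2 by 0.50 (edgeR adjusted p = 0.000162). HEXA, the alpha subunit of hexosaminidase A, stayed between 4.63 and 6.55 CPM in all libraries and passed no test.

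All 3 members of sphingolipid breakdown rose with both compounds, and none differed between the compounds by the test. Of all genes, 25.4% were called higher with FB23-2 and 24.3% with CS2. PSAP, the precursor of the saposins that present lipids to hydrolases, stood at 480, 404 and 510 CPM with FB23-2, at 440, 423 and 418 CPM with CS2 and at 309, 299 and 296 CPM with DMSO. ASAH1, acid ceramidase, stood at 65.8, 67.4 and 74.3 CPM with FB23-2, at 59, 72.9 and 61.7 CPM with CS2 and at 31.6, 35.2 and 30.8 CPM with DMSO. For both genes the 2 compound groups overlapped each other and lay above every DMSO library. The log2 fold changes of PSAP were 0.62 ± 0.08 with FB23-2 (edgeR adjusted p = 2.1e-06) and 0.50 ± 0.08 with CS2 (edgeR adjusted p = 2.91e-05). Those of ASAH1 were 1.09 ± 0.10 (edgeR adjusted p = 1.5e-08) for FB23-2 and 0.99 ± 0.10 (edgeR adjusted p = 6.33e-08) for CS2. The difference FB23-2 minus CS2 had a 95% interval from -0.04 to 0.29 for PSAP and from -0.10 to 0.30 for ASAH1. SMPD1, acid sphingomyelinase, ran from 25.9 to 26.6 CPM with FB23-2, from 22.1 to 27.5 CPM with CS2 and from 16.9 to 20 CPM with DMSO (0.53 and 0.44, edgeR adjusted p = 0.000283 and 0.00185 for FB23-2 and CS2). Without FB23-2 replicate 2, PSAP was higher with FB23-2 than with CS2 (0.21, edgeR adjusted p = 0.00701), and the span and GC correction gave such a call for PSAP (0.32, edgeR adjusted p = 0.000261) and SMPD1 (0.47, edgeR adjusted p = 0.000284).

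Changes of the proton pump genes were all smaller than 1.5-fold. With FB23-2, 3 of 6 were lower (ATP6V0D1, ATP6V0E1 and ATP6V1B2) and none was called higher, while with CS2 2 were higher (ATP6AP1 and ATP6V1H) and 1 was lower (ATP6V0E1). The CS2 shares were 33.3% higher and 16.7% lower, against 24.3% and 25.3% of all genes. The share lower with FB23-2 was 50%, against 26.7% of all genes, of which 25.4% were higher. ATP6V0D1, the d1 subunit of the membrane sector, ran from 42.3 to 48.1 CPM with FB23-2, from 66.4 to 67.7 CPM with CS2 and from 57.1 to 60.6 CPM with DMSO. It fell by 0.39 on the log2 scale with FB23-2 (edgeR adjusted p = 0.000417), its CS2 value was 0.19 (edgeR adjusted p = 0.0611), and FB23-2 minus CS2 was -0.58 (edgeR adjusted p = 4.27e-06). ATP6V0E1, the small e1 subunit, was lower with both compounds, at 55.2 to 70.1 CPM with FB23-2 and 55 to 62.7 CPM with CS2, against 70.8 to 79.9 CPM with DMSO. Its values were -0.30 for FB23-2 (edgeR adjusted p = 0.0115; 0.0581 without DMSO replicate 1) and -0.36 for CS2 (edgeR adjusted p = 0.00357).

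ATP6AP1, an accessory protein of pump assembly, stood at 163 to 179 CPM with FB23-2, at 214 to 230 CPM with CS2 and at 156 to 168 CPM with DMSO. It rose with CS2 (0.44, edgeR adjusted p = 4.65e-05), and its FB23-2 libraries overlapped those of DMSO. With the span and GC correction ATP6AP1 was also called higher with FB23-2 (0.19, edgeR adjusted p = 0.00656), and FB23-2 minus CS2, at -0.36 (edgeR adjusted p = 0.00022) without the correction, was -0.10 (edgeR adjusted p = 0.123). ATP6V1H, the H subunit of the cytosolic sector, had a CS2 value of 0.27 (edgeR adjusted p = 0.0333) that was not called in 5 of 15 settings, among them without DMSO replicate 2 or 3 or CS2 replicate 1 or 3 (0.23 to 0.29). ATP6V1B2, the B2 subunit of that sector, had an FB23-2 value of -0.23 (edgeR adjusted p = 0.0169), and FB23-2 replicate 2 was its lowest library at 160 CPM, against 190 and 193 CPM in the other 2 and 210 to 216 CPM with DMSO. Without that replicate the value was -0.15 (edgeR adjusted p = 0.0708), and without DMSO replicate 1 it was -0.22 (edgeR adjusted p = 0.0575). ATP6V1A, the catalytic A subunit, ran from 80.7 to 96.4 CPM over all libraries and passed no test in the main fit. Without FB23-2 replicate 2 it was called higher with FB23-2 than with DMSO (0.19, edgeR adjusted p = 0.0309). It was called lower in FB23-2 minus CS2 with the span and GC correction and the replicate number as a block (-0.20, edgeR adjusted p = 0.0364).

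Among LC3 family and receptor genes, all 4 tested rose with CS2 and 3 of 4 with FB23-2, against 24.3% and 25.4% of all genes. MAP1LC3B, the LC3B protein that coats autophagosomes, stood at 65.7, 71.1 and 73.4 CPM with FB23-2, at 71.5, 80.4 and 72.1 CPM with CS2 and at 43.6, 39.7 and 39.2 CPM with DMSO. Every library of either compound lay above every DMSO library, and the compound groups overlapped. The log2 fold change of MAP1LC3B was 0.78 ± 0.09 with FB23-2 (edgeR adjusted p = 2.84e-07) and 0.87 ± 0.09 with CS2 (edgeR adjusted p = 7.26e-08), and their difference of -0.09 had a 95% interval from -0.27 to 0.08. SQSTM1, the cargo receptor p62 and itself degraded by autophagy, stood at 201, 198 and 234 CPM with FB23-2, at 239, 225 and 235 CPM with CS2 and at 188, 179 and 189 CPM with DMSO. Both compound groups lay above DMSO. The CS2 value was 0.33 ± 0.08 (edgeR adjusted p = 0.00124), and the FB23-2 value of 0.19 ± 0.08 (edgeR adjusted p = 0.0447) was not called in 6 of 15 settings, among them without any single DMSO library or without FB23-2 replicate 3. Over SQSTM1, 22% of exon bases overlap MRNIP on the opposite strand.

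NBR1, a receptor related to p62, ran from 157 to 175 CPM with FB23-2, from 147 to 160 CPM with CS2 and from 124 to 126 CPM with DMSO, with called values of 0.39 and 0.29 for FB23-2 and CS2. GABARAPL2, a further LC3-like protein, ran from 54.8 to 62.3 CPM with CS2 and from 47.1 to 50.2 CPM with DMSO (0.29, edgeR adjusted p = 0.0122). That call was lost without DMSO replicate 2 or 3 (edgeR adjusted p = 0.0509 each) or without CS2 replicate 2 (edgeR adjusted p = 0.0594). With FB23-2, GABARAPL2 stood at 41.9 to 52.6 CPM, overlapping DMSO and below CS2 by 0.33 on the log2 scale (edgeR adjusted p = 0.00499).

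The largest change of any member was that of WIPI1, a phosphoinositide-binding protein recruited to forming autophagosomes, and it was seen with FB23-2 alone. The gene lies at chr17:68420948-68457513 on the minus strand. WIPI1 stood at 36.8, 55.2 and 36.2 CPM with FB23-2, at 3.89, 3.49 and 4.72 CPM with CS2 and at 4.74, 4.77 and 4.71 CPM with DMSO. The FB23-2 libraries lay far above the other 6, and CS2 and DMSO overlapped. The log2 fold change with FB23-2 was 3.18 ± 0.16, or 9.03-fold (edgeR adjusted p = 4.61e-12), and 2.95 without replicate 2, its highest library. The CS2 value was -0.23 ± 0.17 (edgeR adjusted p = 0.277), and FB23-2 minus CS2 was 3.41 ± 0.16, or 10.6-fold (edgeR adjusted p = 2.28e-12). Over WIPI1, 28.1% of exon bases overlap ARSG, which encodes the lysosomal arylsulfatase G on the opposite strand. ARSG averaged 12.4 ± 1.6 CPM with FB23-2, 7.38 ± 0.78 CPM with CS2 and 5.52 ± 0.83 CPM with DMSO (SD, n = 3 each), and was called higher with FB23-2 (1.17, edgeR adjusted p = 1.63e-06). ARSG thus lay below WIPI1 in FB23-2 cells but above it in CS2 and DMSO cells, where WIPI1 averaged 4.03 and 4.74 CPM. The part of shared reads in the low WIPI1 level of those cells, on which its fold change rests, was not tested. Whether reads of the overlap were counted for either gene is not stated in the sources used here.

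The promoters of CTSL and WIPI1, the members with the largest rises with FB23-2, held no CACGTG in the window searched. The 130 bases before each start are shown for comparison with those above, that of CTSL at chr9:87725989-87726118 on the plus strand and that of WIPI1 at chr17:68457497-68457626 on the minus strand. The WIPI1 stretch is a run of G-rich repeats.
CTSL: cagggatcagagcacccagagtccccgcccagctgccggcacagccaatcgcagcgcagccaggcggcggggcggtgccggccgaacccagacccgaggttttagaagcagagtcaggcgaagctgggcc
WIPI1: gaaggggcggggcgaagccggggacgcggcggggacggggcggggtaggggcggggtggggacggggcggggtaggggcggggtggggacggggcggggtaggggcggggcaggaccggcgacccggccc

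Of the other core autophagy genes, 1 rose and 1 fell with CS2. With WIPI1 counted, these were 14.3% each of 7, against 24.3% higher and 25.3% lower of all genes. With FB23-2 42.9% of the 7 rose and none fell, against 25.4% and 26.7% of all genes. ULK1, the kinase that starts autophagy, stood at 63.4 to 70.5 CPM with FB23-2, at 81.8 to 110 CPM with CS2 and at 68.6 to 73.8 CPM with DMSO, a rise of 0.42 with CS2 on the log2 scale (edgeR adjusted p = 0.000988). With the span and GC correction the CS2 value of ULK1 was 0.21 (edgeR adjusted p = 0.0251), and FB23-2 minus CS2, at -0.48 (edgeR adjusted p = 0.000238) without it, was -0.03 (edgeR adjusted p = 0.729). ATG7, the E1-like enzyme that activates LC3, stood at 10.9 to 14.4 CPM with CS2, against 16.1 to 19.5 CPM with DMSO (-0.47, edgeR adjusted p = 0.00311). ATG7 spans 285.4 kb, and with the span and GC correction its CS2 value was 0.00 (edgeR adjusted p = 0.999). Genes on the opposite strand, VGLL4 the most, overlap 18.1% of the exon bases of ATG7. VGLL4 had 7860 counts over all libraries. With FB23-2, ATG5, which conjugates to ATG12, ran from 55.3 to 58.3 CPM against 45.9 to 47.7 CPM with DMSO (0.28, edgeR adjusted p = 0.0127; 0.0552 without DMSO replicate 3). UVRAG, a partner of Beclin 1, ran from 49.7 to 59.5 CPM with FB23-2 against 39.4 to 42 CPM with DMSO (0.39, edgeR adjusted p = 0.00131). BECN1 itself, a subunit of the lipid kinase complex, and ATG9A, the lipid scramblase of the growing membrane, were not called against DMSO with either compound, and BECN1 was lower with FB23-2 than with CS2 (-0.25, edgeR adjusted p = 0.0238). The call on BECN1 was lost without FB23-2 replicate 2 or 3 or CS2 replicate 2 (-0.19 to -0.24), and 38.8% of the exon bases of ATG9A overlap another gene.

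Of the members, 6 span over 100 kb, and for the 3 longest that passed the filter the correction for span and GC content moved the CS2 values most. UVRAG (328 kb) had a CS2 value of -0.09 (edgeR adjusted p = 0.46), which became 0.46 (edgeR adjusted p = 4.9e-05) with the correction. The value of ATG5 (280.4 kb) with CS2 was 0.14 (edgeR adjusted p = 0.182) and became 0.63 (edgeR adjusted p = 2.84e-06). The calls on these long genes with CS2 therefore depend on that choice. The FB23-2 value of UVRAG was 0.52 with the correction.

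**Figure D3:**
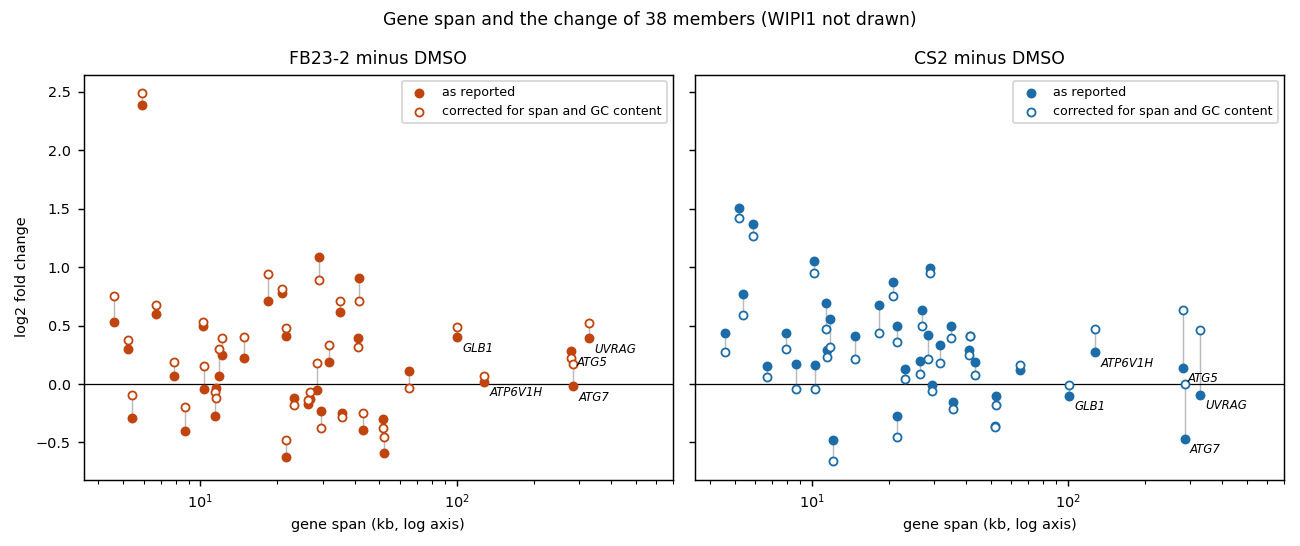
Log2 fold change of the tested members against DMSO by gene span (kb, log axis), FB23-2 on the left and CS2 on the right; filled points are the reported values, open points those with the span and GC correction, and WIPI1 is not drawn. ATG7, at 285.4 kb, is at -0.02 with FB23-2 and at -0.47 with CS2, where its corrected value is 0.00.

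Set directly against each other, the compounds differed past 1.5-fold in 7 members. WIPI1, CTSL and CTSZ were higher with FB23-2, where 19.8% of all genes pass the same rule, and NEU1, CTSF, MCOLN1 and CTSB were lower, where 19.2% do. Against DMSO, 9 members were higher past 1.5-fold and 0 lower with CS2 (13.2% and 15.9% of all genes), while 8 were higher and 1, TFEB, was lower with FB23-2 (14.1% and 16.2%). CTSL, GAA, ASAH1 and MAP1LC3B were among those past 1.5-fold higher with both compounds. These lists depend on the span and GC correction. With it, MCOLN1 (-0.54) and CTSB (-0.57) were under 1.5-fold in FB23-2 minus CS2, and TPP1 (0.62) was past it. For CS2 against DMSO, CTSB (0.50), GAA (0.44) and MCOLN1 (0.47) were then under it and ATG5 (0.63) past it. For FB23-2 against DMSO, TFEB (-0.45) was then under it and SMPD1 (0.75) past it. The call on CTSZ was lost in several settings, as given above.

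The 9 members with an E-box in the promoter, described by counts alone, stood mostly below CS2 with FB23-2. In FB23-2 minus CS2, 0 of the 9 were higher and 7 lower (median -0.57), whereas of the 20 tested members with a promoter and no E-box 6 were higher and 6 lower (median -0.09). With FB23-2 against DMSO, 2 of the 9 were higher and 4 lower (median -0.27), against 11 and 1 of the 20 (median 0.26). With CS2 against DMSO, 6 of the 9 were higher and 0 lower (median 0.56), against 11 and 1 of the 20 (median 0.29). Of the 6 members with TCACGTGA, 3 were higher and 0 lower with CS2 (median 0.19), against 14 and 1 of 23 without it (median 0.33). With FB23-2 1 was higher and 3 lower (median -0.33), against 12 and 2 (median 0.25). FB23-2 minus CS2 gave 0 and 4 (median -0.47), against 6 and 9 (median -0.14). Of all 249 tested genes with TCACGTGA, 32.9% were higher and 28.5% lower with CS2. With FB23-2 against DMSO, 28.1% of the 249 were higher and 29.7% lower (median -0.03). In FB23-2 minus CS2, 30.9% were higher and 36.1% lower (median -0.03). For 12330 genes with a promoter and no TCACGTGA, the FB23-2 shares were 28.4% and 28.2%. Their shares in FB23-2 minus CS2 were 31.3% and 31.7%. Among all 1485 tested genes with an E-box, 27.5% were higher and 32.3% lower with FB23-2, and 27.3% higher and 28.1% lower with CS2. Over all tested genes the E-box went with little difference: 29.3% of 1485 genes with it were higher and 35.6% lower in FB23-2 minus CS2 (median -0.03), against 31.6% and 31.3% of 11094 genes with a promoter and no match (median 0.00). With the span and GC correction the counts in FB23-2 minus CS2 were 1 higher and 5 lower of 9 (median -0.23), with CTSA and CTSD no longer called and GAA called higher, and 6 higher and 5 lower of 20 (median 0.13). With the same correction the counts of the 9 with FB23-2 against DMSO turned, to 3 higher and 1 lower, with a median still below 0 (-0.09), against 13 and 1 of the 20 (median 0.36). With CS2 against DMSO the corrected counts were 5 higher and 0 lower of 9 (median 0.32), against 12 and 0 of the 20 (median 0.21). Without the correction, CS2 against DMSO gave 6 higher and 0 lower (median 0.56) of the 9 members with an antioxidant response element. The 20 members without that element gave 11 and 1 (median 0.29). These CS2 values equal those for the E-box, and some members hold both motifs. For that element, FB23-2 against DMSO gave 4 and 2 (median 0.25), against 9 and 3 (median 0.13). FB23-2 minus CS2 gave 2 and 5 (median -0.37), against 4 and 8 (median -0.19). The part that base composition has in the E-box pattern was not otherwise tested.

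**Figure D4:**
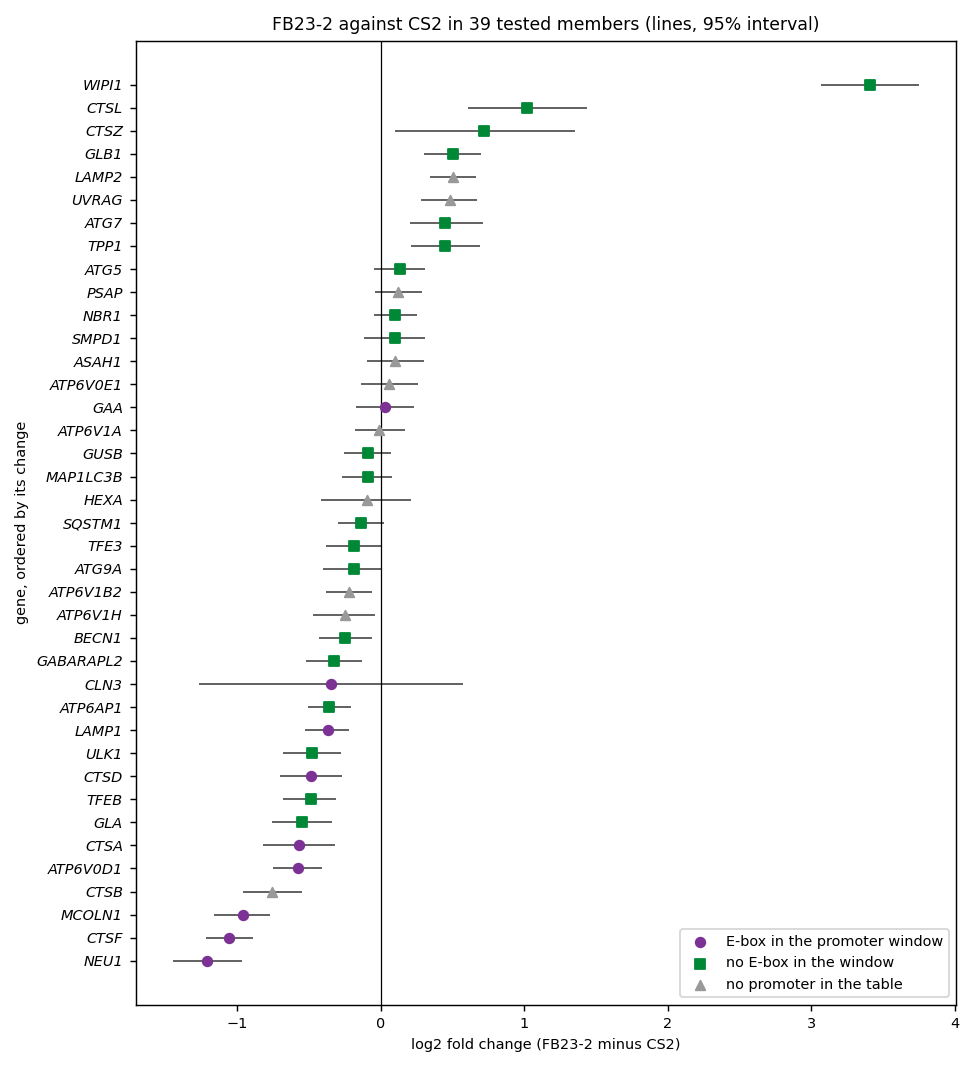
Log2 fold change of FB23-2 minus CS2 (points) with 95% intervals (lines) for the 39 tested members, ordered by value; circles have CACGTG in the promoter window, squares do not and triangles have no promoter in the table. The 7 called members with an E-box lie between -0.37 (LAMP1) and -1.21 (NEU1), and WIPI1, without one, lies at 3.41.

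Other genes of the same pathways, listed by function, are given for comparison, and each named here as risen or fallen passed an edgeR adjusted p of 0.05. Their counts stand beside 25.4% higher and 26.7% lower of all genes with FB23-2, and 24.3% higher and 25.3% lower with CS2. Of 38 tested hydrolases and cofactors that are no members, 23 were higher and 4 lower with FB23-2 (60.5% and 10.5%), and 19 higher and 7 lower with CS2 (50% and 18.4%). CTSV, a cathepsin close to CTSL, averaged 36.9 ± 4.1 CPM with FB23-2, 88.8 ± 10 CPM with CS2 and 16.8 ± 1.5 CPM with DMSO (SD, n = 3 each), so that its order of the compounds was the opposite of that of CTSL. The direct difference was -1.27 ± 0.11 for CTSV (edgeR adjusted p = 4.12e-09). LGMN, the asparaginyl endopeptidase that processes cathepsins, rose with CS2 by 1.14 on the log2 scale and had a value of 0.68 with FB23-2. DNASE2, the acid DNase, rose with FB23-2 by 1.41 and had a value of 0.67 with CS2. AGA, which cleaves glycan from asparagine, fell with CS2 (-0.81, against 0.54 with FB23-2). HYAL2, a hyaluronidase, fell with FB23-2 (-0.85, against 0.18 with CS2).

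Of 30 further membrane proteins and transporters, 16 were higher and 3 lower with FB23-2 (53.3% and 10%), and 15 higher and 2 lower with CS2 (50% and 6.67%). NPC2 and NPC1, which pass cholesterol out of the lysosome, rose by 1.99 and 0.85 with FB23-2, and LAMP3 by 2.57. The CS2 values of NPC2, NPC1 and LAMP3 were 0.35, 0.22 and 0.33. GRN, the progranulin precursor, rose by 1.12 with CS2 and had a value of 0.77 with FB23-2. TPCN2 fell with FB23-2 (-0.68, against 0.06 with CS2), and CLCN6 with CS2 (-0.76, against -0.16 with FB23-2). Of 15 further V-ATPase genes, 4 were higher and 2 lower with FB23-2 (26.7% and 13.3%, the first near the share of all genes), and 9 higher and 1 lower with CS2 (60% and 6.67%), led by ATP6V1G2 (1.08, with 23.1% of its exon bases overlapped by other genes) and TCIRG1 (0.71). Among the V-ATPase genes that fell with FB23-2 was ATP6V0E2 (-0.38, against 0.34 with CS2). Of 44 further autophagy genes, 19 were higher and 8 lower with FB23-2 (43.2% and 18.2%), and 21 higher and 7 lower with CS2 (47.7% and 15.9%). The receptors OPTN and CALCOCO2 rose by 2.07 and 1.55 with FB23-2, and BNIP3L, a receptor for mitochondria, by 1.26. The CS2 values of OPTN, CALCOCO2 and BNIP3L were 0.96, 0.72 and 0.18. FUNDC1 and AMBRA1 fell with FB23-2 (-0.77 and -0.48), with CS2 values of 0.00 and -0.20. With CS2, ATG16L2 rose by 1.28 and ATG2A, a lipid transfer protein, by 1.13. The FB23-2 values were 1.04 for ATG16L2 and -0.26 for ATG2A. After the span and GC correction ATG16L2 had 1.2 with FB23-2 and 1.09 with CS2. WDFY3 and ATG2B fell with CS2 (-0.76 and -0.63, or -0.25 and -0.55 with the correction).

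The 17 tested genes that act on TFEB, such as the Rag GTPases, the LAMTOR complex and folliculin, did not lean one way. With FB23-2, 4 were higher and 6 lower (23.5% and 35.3%), led by FNIP1 (0.68) and LAMTOR1 (-0.72). With CS2, 4 were higher and 5 lower (23.5% and 29.4%). FLCN, whose product folliculin lets TORC1 act on TFEB, rose by 1.02 with CS2 (0.86 with the span and GC correction). GSK3B, a kinase that phosphorylates TFEB, fell with CS2 (-1.33), and so did RPTOR, the TORC1 scaffold (-0.99). These genes span 273.1 and 421.6 kb, and their CS2 values with the correction were -0.85 and -0.43, both still called.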

How the data were processed

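Gene expression was measured by RNA sequencing of mRNA from H69 cells; per the labels' protocols, TRIzol was used for RNA isolation and a kit (Hieff NGS Ultima Dual-mode mRNA) for the libraries. The values are raw counts of reads per Ensembl gene ID, whole numbers that the authors deposited without normalization in a single table with 9 columns, each matched to a labelled sample by name (a column start of FB23 was read as FB23-2, the only such treatment of H69). The submitters' processing notes name the genome build hg38. The sources used here name no aligner, counting tool, annotation or strand setting, so reads of overlapping, antisense or near-identical genes may be split or mixed.

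Members were found by Ensembl ID through GENCODE release 29 on GRCh38, which also gave coordinates, spans, merged exon lengths and exon overlaps. Tests used edgeR 4.0.16 in R 4.3.3. filterByExpr by group (minimum count 10, minimum total 15) left 19781 genes, and TMM gave the library sizes. A single fit held all 9 libraries, as a robust quasi-likelihood model without covariates (biological coefficient of variation 0.101), p-values were Benjamini-Hochberg adjusted over all genes tested, and genes under 0.05 were called. The SE is the size of the log2 fold change divided by the square root of F. The code was tested on simulated counts. The limit of 3 counts covers counting error alone, because these reads carry no molecular identifiers and may repeat a molecule. CPM per kb divides by merged exon length. Within groups, pairs of libraries gave a chi-square per degree of freedom from 4.14 to 48.1, above what sampling of the same library alone would give. Each library was counted as 1 replicate, though this check cannot show that they came from separate cultures. Where nothing says that the replicates came from separate cultures, p-values measure the spread between these libraries.

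The members, the other gene lists and the tests were chosen with earlier results of these data known. Values per library are given for TFEB, TFE3, MITF, SQSTM1, MAP1LC3B and each member called with a change of at least 1.5-fold in any comparison. From the other lists, examples come from the up to 3 called genes with the largest change in each direction per comparison among those reaching a mean of 10 CPM in any group. ARSG, which overlaps WIPI1, was added after its values were seen. Promoters were taken from RefSeq (GRCh38.p14) and searched on both strands in Python 3.11.15. The alternatives were other size factors, other filters, DESeq2 1.42.0, the replicate number as a block, a correction for gene span and GC content by loess, a fit of only the groups compared, and each library left out.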

Additional observations from a re-analysis of the deposited data

How the results depend on the processing

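Across 15 alternative settings per comparison, 1640 of 1751 recomputed values kept their side of the threshold, and the called ones among them also their direction. Values called in neither fit could change sign within that count. In FB23-2 minus CS2, TFE3 did so with the span and GC correction (-0.19 to 0.19). Of the 72 member results called at an adjusted p of 0.05, 50 were called in every setting and 22 lost the call in at least 1, while 15 results that were not called gained a call in at least 1. The count of members higher than DMSO ranged from 14 to 20 with FB23-2 and from 19 to 23 with CS2, and FB23-2 minus CS2 gave 7 to 9 higher and 13 to 16 lower. The correction for gene span and GC content changed the most: 4 members were then lower with FB23-2 (7 without it) and 1 was lower with CS2 (2 without it; also 1 with the replicate block added). It turned UVRAG in CS2 minus DMSO to 0.46 and ATG5 in FB23-2 minus CS2 to -0.41, also with the replicate block added, and moved the members' median in FB23-2 minus CS2 to -0.03. The cause was not tested.

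The replicate numbers were not taken to pair the libraries, since not every same-number pair had a correlation of deviations over 0.1. With DMSO, same-number pairs had values from -0.03 to 0.021, and not every library correlated best with its own number. Between FB23-2 and CS2 every library did (0.167, 0.123 and 0.049), which is a hint from the data and not from the design. With the replicate block and no other change, 18 members were higher and 8 lower with FB23-2, 23 were higher and 2 lower with CS2, and 8 were higher and 16 lower in FB23-2 minus CS2.

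With 3 libraries per group, small differences can be missed, and low counts limit MITF, GABARAPL1 and CLN3. No dose, time or protein measurement was used here, so the values describe transcript levels only.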
